A study of Arabidopsis thaliana with 4 samples.

Results

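The B-box (BBX) zinc finger family of Arabidopsis thaliana comprises 32 genes, among them CONSTANS (CO) and its CO-like (COL) relatives, and all 32 were found by locus identifier among the 33602 genes of the deposited table. The samples were whole Columbia seedlings, grown for 14 days at 22 °C in liquid medium that held no nitrogen, in days of 16 h light and 8 h dark. The 0 h group (2 libraries) had no glutamine, and the 0.5 h group (2 libraries) had been moved for 0.5 h to the same medium with 2.5 mM glutamine. Both groups thus share nitrogen deprivation, and the question put to the comparison is which genes answer glutamine early. Glutamine, transfer and time of day cannot be told apart here. Nothing in the labels says that the libraries came from separate cultures, so p-values measure only the spread between these libraries.

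B-box proteins are transcriptional regulators built around zinc-binding B-box domains, which mediate contacts between proteins. In light signalling several of them work with HY5, a bZIP factor that promotes photomorphogenesis, and are marked for destruction by the COP1 ubiquitin ligase. CO activates the florigen gene FT in long days, and many family members are expressed with a daily rhythm. The family is divided into structure groups: group I and II proteins carry a pair of B-boxes and a CCT domain, group III proteins a single B-box and a CCT domain, group IV proteins a pair of B-boxes alone, and group V proteins a single B-box alone. In the coding sequences of the TAIR10.1 annotation, a B-box spacing pattern of cysteine, aspartate and histidine was found at least once in 31 of 32 members, the exception being BBX26. The search did not recover the pair throughout groups I, II and IV. It found only 1 pattern in COL5, COL9, COL10, COL11, COL12, COL13 and BBX23, and whether it missed B-boxes was not tested. A CCT core was found in 14 of 17 members of groups I to III and in 0 of 15 members of groups IV and V.

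Promoter sequences are shown for the members that carry a clock-related motif and either fell or hold more than 1 copy. This choice uses the calls, and a part of the clock in the changes of the members was not tested. Not shown are the single copies of COL2 and COL14 (evening element), which were not called, and of BBX26 (CCA1-binding site), which was not tested. The window ran from 250 bases before to 50 bases after the annotated gene start in the RefSeq TAIR10.1 genome, and both strands were searched. Each line gives a stretch on the coding strand of the gene, with the motif in capitals and the distance of its first base from the start. The motifs were the CCA1-binding site AAAAATCT (AGATTTTT on the other strand) and the evening element AAATATCT (AGATATTT on the other strand), and the capitals of the copies shown do not overlap.
BBX28, chromosome 4, plus strand, 96 bases before the start: attatccaaacAAAAATCTcaaataaaggt
BBX28, chromosome 4, plus strand, 47 bases before the start: ctaaagcaaaaAGATTTTTaagttgaacca
COL13, chromosome 2, plus strand, 224 bases before the start: gtcccggtttaAAAAATCTtcagagatgta
COL13, chromosome 2, plus strand, 139 bases before the start: atttactttttAAAAATCTaaccaagtact
BBX22, chromosome 1, plus strand, 33 bases after the start: cacttgtatttAGATTTTTcacgtgtct
BBX24, chromosome 1, minus strand, 51 bases before the start: gaatataataaAAATATCTaaaggtaggag
COL10, chromosome 5, minus strand, 235 bases before the start: ttttttaggcaAGATATTTtgttcattcat
COL10, chromosome 5, minus strand, 199 bases before the start: ctctcaaattaAGATATTTtggttttttgt
COL10, chromosome 5, minus strand, 17 bases before the start: catactcataaAAATATCTttagggtcctt
COL15, chromosome 1, minus strand, 17 bases before the start: tacgttaaaatAGATATTTaggtgaaaaag
COL15, chromosome 1, minus strand, 8 bases after the start: aaaagcagattAGATATTTtctcttagatt

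The CCA1-binding site was present in the window of 3 of the 8 members that fell (BBX22, BBX28 and COL13), of 0 of the 2 that rose, of 0 of the 13 tested and not called, and of 1 of the 9 not tested. Over 27443 promoters of nuclear protein-coding genes its share was 7.88%. The evening element was present in 1 of the 8 members that fell (BBX24) and in 4 of the 13 not called, against 5.65% of all promoters. The G-box CACGTG, a site bound by HY5 and PIF factors, was present in 5 of 32 members, of which BBX22 was the only member among the 10 called, against 7.68% of all promoters. A match describes these letters only and is not a bound site.

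The libraries held, at 0 h, 26069129 and 27203579 reads in genes and, at 0.5 h, 26075036 and 20429735, as recovered from the deposited values. Chloroplast genes took 0.379% of the reads in library 2 at 0.5 h and 0.0569 to 0.0974% in the other 3 libraries. Of 10 root markers, 6 (BGLU21, EXPA7, EXPA18, COBL9, CASP1 and PLT1) were lower in library 1 at 0 h and library 2 at 0.5 h than in the other libraries, and PLT2 had 0 reads at 0 h. The summed root markers came to 181 and 314 RPKM (reads scaled for gene length and library size) at 0 h and to 210.3 and 195.9 at 0.5 h, with PYK10, an endoplasmic reticulum-body glucosidase of roots, and CASP1 of the endodermis the highest by the mean of the 4 libraries. SHR, a regulator of root patterning, was the 1 root marker of 5 tested that rose, beside 6.71% of all genes tested. The 8 shoot markers, led by LHCB1.3 and RBCS1A, summed to 31623 and 32356 RPKM at 0 h and to 26958 and 27671 at 0.5 h. Of these 8, LHCA1 of the photosystem I antenna was called lower and no other was called, beside 5.11% of all genes tested called lower. In whole seedlings, fewer cells of a type and less RNA per cell cannot be told apart, and the part of tissue makeup in the results below was not tested.

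Of the 32 members, 23 averaged at least 1 RPKM over the 4 libraries and were tested. At 0.5 h, 2 of the 23 rose (BBX20 and CO) and 8 fell (BBX28, BBX25, BBX24, BBX21, COL13, BBX22, COL5 and BBX27), by limma with Benjamini-Hochberg adjustment over all 18039 genes tested and a threshold of 0.05. Called members were thus 43.5% of those tested, beside 11.8% of all genes. Members that fell were 34.8%, beside 5.11% of all genes, and those that rose 8.70%, beside 6.71%. The 8.70% and the 43.5% count CO, which passed the minimum only through its 0.5 h libraries, where it was high. The median log2 fold change of the tested members was -0.33, against -0.03 over all genes. The libraries of the groups did not overlap for 20 of the 23 members, beside 59.7% of all genes tested, and CO and BBX29 are among the 20, having passed the minimum through 1 time only. Fold changes are of log2(RPKM + 1), each with its limma standard error, and means are given ± SD (n = 2).

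**Figure D1:**
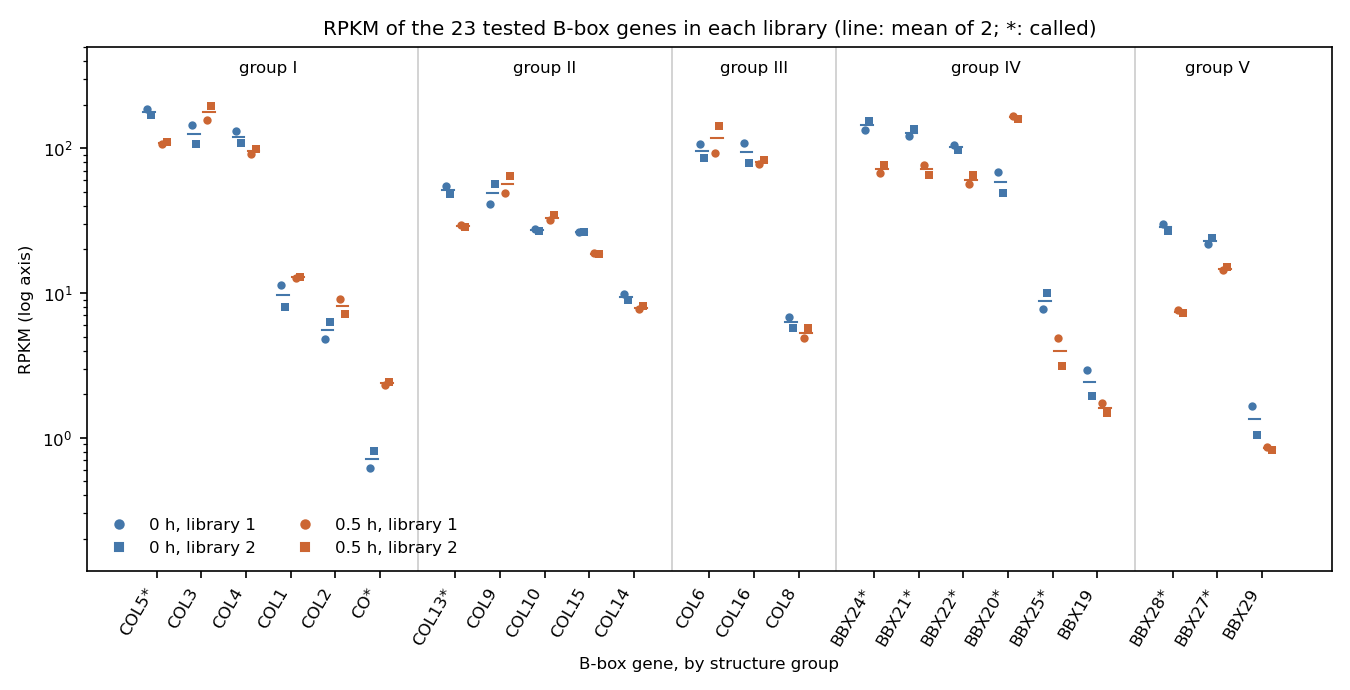
RPKM of the 23 tested B-box genes on a log axis, arranged by structure group, with circles for library 1 and squares for library 2 of each time, blue for 0 h and orange for 0.5 h. Lines mark the mean of 2 libraries and asterisks the 10 called genes; BBX20 is the only member of group IV with higher values at 0.5 h.

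Group IV held 5 of the 10 calls, among its 6 tested members, beside 11.8% called over all genes tested. BBX20 (AT4G39070), also named BZS1, promotes photomorphogenesis together with HY5 and is repressed by brassinosteroid signalling. Its levels were 68.0 and 49.1 RPKM at 0 h and 168 and 160.2 RPKM at 0.5 h. Both later libraries lay well above both earlier ones. The rise from 58.6 ± 13.4 to 164 ± 5.31 RPKM was 1.49 ± 0.18 on the log2 scale (limma adjusted p = 0.0068). Only 126 of the 18039 tested genes, BBX20 included, had a fitted rise of that size or more.

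BBX21 (AT1G75540) and BBX22 (AT1G78600) also promote photomorphogenesis as partners of HY5, and both fell. BBX21 had 121 and 135 RPKM at 0 h and 77.1 and 65.5 RPKM at 0.5 h, a log2 fold change of -0.84 ± 0.15 (limma adjusted p = 0.020). BBX22, also named LZF1, had 106 and 97.1 RPKM at 0 h and 56.1 and 65.0 RPKM at 0.5 h, a log2 fold change of -0.74 ± 0.15 (limma adjusted p = 0.025). In both genes the later libraries lay below the earlier ones without overlap. BBX20 lay below BBX21 at 0 h and above it at 0.5 h. Within each library the ratio of BBX20 to BBX21 was 0.563 and 0.364 at 0 h, and 2.17 and 2.45 at 0.5 h. This pair was picked from several whose ratios were computed.

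BBX24 (AT1G06040), also named STO, and BBX25 (AT2G31380), also named STH, act in the opposite sense in light signalling, as repressors that interfere with HY5, and both fell as well. BBX24 had 134 and 154 RPKM at 0 h and 67.4 and 76.5 RPKM at 0.5 h. It fell by 0.99 ± 0.15 on the log2 scale (limma adjusted p = 0.012), with no overlap between the groups. BBX25 was far lower, at 7.75 and 9.92 RPKM at 0 h and 4.85 and 3.12 RPKM at 0.5 h. It too fell by 0.99 ± 0.21 (limma adjusted p = 0.029), and with a pseudocount of 5 its log2 fold change was -0.62. BBX19, which binds CO and delays flowering, had 2.93 and 1.94 RPKM at 0 h and 1.75 and 1.48 at 0.5 h and was not called (limma adjusted p = 0.27). The summed level of all 8 members of group IV was 439.6 and 448 RPKM at 0 h and 376 and 372 RPKM at 0.5 h. Leaving out BBX20, which was chosen after its value was seen, it was 372 and 399 RPKM at 0 h and 208 and 212 RPKM at 0.5 h.

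Group V held the largest fall of the family. BBX28 (AT4G27310), which binds HY5 and lowers its binding to DNA, had 30.1 and 26.8 RPKM at 0 h and 7.62 and 7.24 RPKM at 0.5 h. The 0 h mean was 3.83 times the 0.5 h mean, and the groups lay far apart. The fall from 28.5 ± 2.30 to 7.43 ± 0.267 RPKM was -1.80 ± 0.13 on the log2 scale (limma adjusted p = 0.0044), and 24 of the 18039 tested genes, BBX28 included, had a fitted fall of that size or more. Its close relative BBX29 was lowly expressed, with 43 and 30 reads at 0 h against 25 and 18 at 0.5 h (1.66, 1.05, 0.865 and 0.826 RPKM), and was not called (limma adjusted p = 0.34). BBX29 passed the minimum of 1 RPKM on the mean only through its 0 h libraries. BBX27 (AT1G68190) fell from 21.6 and 23.9 RPKM to 14.4 and 15.1 RPKM, a log2 fold change of -0.59 ± 0.13 (limma adjusted p = 0.032).

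**Figure D2:**
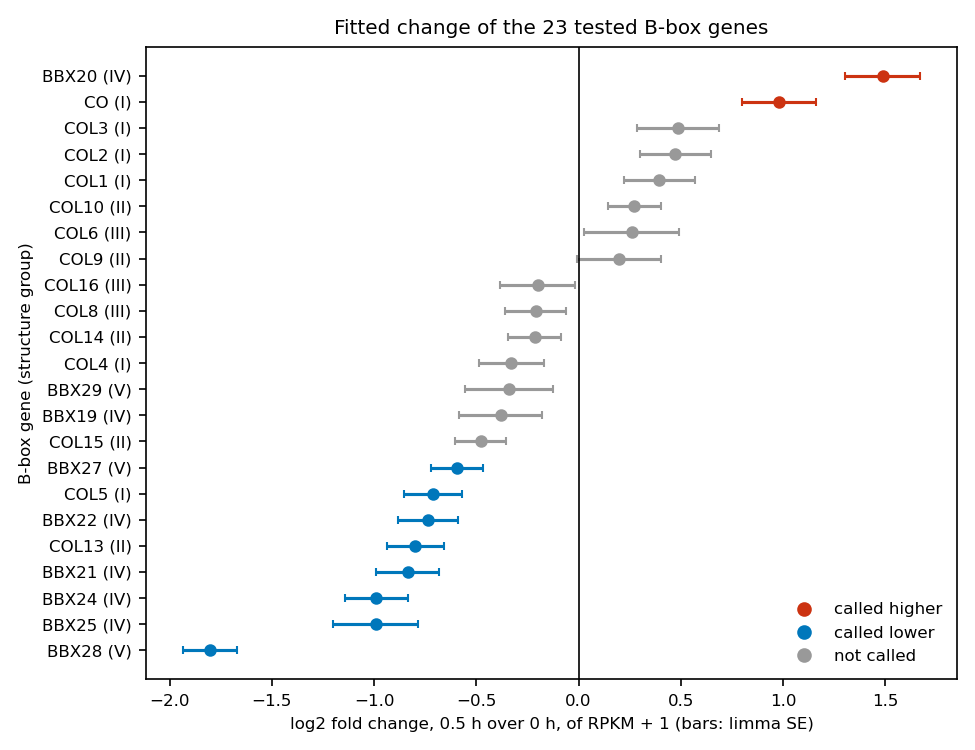
Log2 fold change of RPKM + 1, 0.5 h over 0 h, of the 23 tested B-box genes, ordered by size, with the limma standard error as bars and the structure group in brackets. BBX20 (1.49) and CO (0.98) are called higher in red, 8 genes from BBX27 (-0.59) to BBX28 (-1.80) are called lower in blue, and grey genes are not called.

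Group I, CO and its nearest relatives, showed changes in both directions. CO itself (AT5G15840), the photoperiodic activator of flowering, rested on few reads: 23 and 34 at 0 h and 99 and 79 at 0.5 h. Its levels were 0.618 and 0.815 RPKM at 0 h and 2.32 and 2.44 RPKM at 0.5 h, and the groups lay far apart. The mean was 3.32-fold higher at 0.5 h, and the log2 fold change of RPKM + 1 was 0.98 ± 0.18 (limma adjusted p = 0.021). That value was 0.37 with a pseudocount of 5, and 1.61 with a pseudocount of 0.1. CO passed the minimum of 1 RPKM on the mean only through its 0.5 h libraries, so its call is conditional on that difference.

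COL5 (AT5G57660), which can promote flowering when overproduced, was the most abundant member at 0 h. It had 187 and 170 RPKM at 0 h and 107 and 110.4 RPKM at 0.5 h, with no overlap, and fell by 0.71 ± 0.14 on the log2 scale (limma adjusted p = 0.026). COL3 (AT2G24790), a COP1 target that promotes photomorphogenesis, had 145 and 108 RPKM at 0 h and 156 and 197 RPKM at 0.5 h and was not called (0.49 ± 0.20, limma adjusted p = 0.17). Within each library the ratio of COL3 to COL5 was 0.773 and 0.634 at 0 h, and 1.46 and 1.79 at 0.5 h. Ratios of other pairs were computed and are not given, and a ratio adds no test to the values of its genes. COL4 (AT5G24930), a repressor of flowering, had 132 and 108 RPKM at 0 h and 91.5 and 98.5 RPKM at 0.5 h (limma adjusted p = 0.23). COL1 (AT5G15850) and COL2 (AT3G02380) had higher values in both 0.5 h libraries, but neither was called (limma adjusted p = 0.19 and 0.13). COL1 lies wholly within an antisense long non-coding RNA gene, and the deposited share of multi-mapped reads for COL1 reached 0.947, so its values are uncertain.

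Groups II and III held 1 call among 8 tested members, near the share of 11.8% called over all genes tested. COL13 (AT2G47890), which acts in red-light inhibition of hypocotyl growth, had 55.1 and 47.9 RPKM at 0 h and 29.6 and 28.7 RPKM at 0.5 h. It fell by 0.80 ± 0.14 on the log2 scale (limma adjusted p = 0.017), and the groups did not overlap. COL15 (AT1G28050) lay just outside the threshold, at 26.6 and 26.3 RPKM at 0 h and 18.9 and 18.5 RPKM at 0.5 h (-0.48 ± 0.12, limma adjusted p = 0.053). BBX27, with the highest adjusted p of the called members, lay just inside it. COL9 (AT3G07650), a repressor of flowering that lowers CO transcript levels, had 41.4 and 56.8 RPKM at 0 h and 48.8 and 63.9 RPKM at 0.5 h, and the groups overlapped. COL6 (AT1G68520) and COL16 (AT1G25440), both abundant, overlapped too, with 107, 85.1, 92.6 and 142 RPKM for COL6 and 109, 79.3, 78.2 and 83.3 RPKM for COL16 in the order of the libraries. Within each time COL3 and COL6 were higher in the library with the lower root-hair markers EXPA7 and EXPA18, whose part in these levels was not tested. The same library order held for COL1, COL4, COL5, COL8, COL10, COL14, COL16 and BBX22, so it was not particular to COL3 and COL6. It did not hold for the remaining tested members, such as COL9 and COL13. COL10, COL14 and COL8 were fitted between -0.21 and 0.27 and were not called.

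The order of levels within the family changed between the times. At 0 h the highest means were those of COL5, BBX24, BBX21, COL3 and COL4, and of these COL5 and COL4 lay clear of the next member. At 0.5 h COL3 and BBX20 led, with ranges that overlapped, and COL6 and COL5 followed. BBX20 stood in place 9 at 0 h and in place 2 at 0.5 h, and BBX28 went from place 12 to place 18. The summed level of all 32 members was 1360 and 1239 RPKM at 0 h and 1092 and 1211.5 RPKM at 0.5 h.

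The other 9 members had a mean under 1 RPKM and were not tested. COL12 had 0 reads in every library, and COL11, BBX23, BBX26 and BBX30 had at most 1 read in any library. A floor of 3 reads, which covers counting error only, allows these 5 genes a level of up to 0.280 RPKM. BBX30 and BBX31 are microproteins that bind CO and hold it in a repressor complex. BBX31 had 10 and 11 reads at 0 h, against 7 and 3 at 0.5 h. COL7 had 25 and 28 reads at 0 h, against 12 and 8 at 0.5 h, and BBX18 19, 27, 27 and 12 reads in the order of the libraries. BBX32, a repressor of light responses that binds BBX21, had 7 and 10 reads at 0 h, against 20 and 33 at 0.5 h.

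Calls of single members depended on the few libraries. BBX20, BBX24 and BBX28 were called in each of the 4 fits that leave out a library, and the other 7 called members each lost the call in at least 1 of them (limma adjusted p = 0.051 to 0.15 where lost). COL5, BBX22 and BBX27 lost it whichever library was left out. CO, BBX21 and BBX25 lost it without either 0 h library or without library 2 at 0.5 h, and COL13 without library 1 at 0 h or library 2 at 0.5 h. Members called lower numbered 2 and 3 without library 1 and library 2 at 0 h, and 5 and 2 without library 1 and library 2 at 0.5 h. None of the 10 fold changes turned its direction in these fits. With no minimum on the mean RPKM, limma called 0 of the 32 members (adjusted p = 0.10 to 0.22 for the 10) and 2 of 33602 genes in all. At an unadjusted limma p under 0.05, 4 of the 32 members were higher and 11 lower. Of the 33602 genes, 2682 were higher and 2803 lower at that p. Of the 10 called members, 5 overlap another annotated gene (CO, COL13, BBX20, BBX24 and BBX25), and whether the counting used strand is unknown from the sources at hand, so reads of such neighbours may be mixed. The overlaps differ in size. BBX20 shares 4 bases with a neighbour of at most 3.03 reads in any library, and the neighbour of COL13 had at most 8.55. CO shares 67.3% and BBX24 20.9% of its span with an opposite-strand gene absent from the deposited table. BBX25 shares 2.82% with a neighbour of 694 to 1481 reads.

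**Figure D3:**
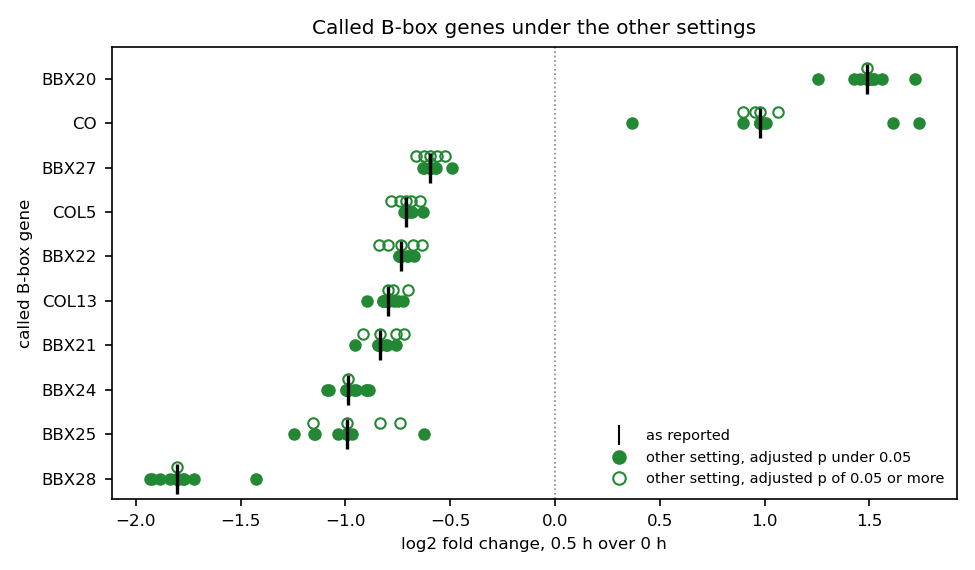
Log2 fold change, 0.5 h over 0 h, of the 10 called B-box genes as reported (black bars) and under each other setting (circles), filled where the limma adjusted p was under 0.05 and open, drawn slightly higher, where it was not. No circle crosses 0, and BBX20, BBX24 and BBX28 have a single open circle each, from the fit with no minimum on the mean.

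Genes that act with B-box proteins were examined beside them, in lists chosen with earlier results of these data known. Over all genes tested, limma called 6.71% higher and 5.11% lower, and these shares belong beside each count below. In the COP1-HY5 light module 3 of 11 tested genes rose and 0 fell (median log2 fold change -0.04). HYH, the closest homologue of HY5, rose from 16.9 ± 1.28 to 47.1 ± 4.04 RPKM (1.43 ± 0.14, limma adjusted p = 0.0047). RUP1, a repressor of the UV-B photoreceptor UVR8, had 18.0 and 13.7 RPKM at 0 h and 36.9 and 44.8 RPKM at 0.5 h (1.32 ± 0.18). SPA4, a COP1 partner, rose by 0.65 ± 0.15. The groups did not overlap for any of these 3 genes, beside 27.1% of all genes tested that lay higher without overlap. This adds no support to their calls. HY5 had 23.9 and 15.7 RPKM at 0 h and 34.9 and 28.3 RPKM at 0.5 h, and was not called (limma adjusted p = 0.094), nor was UVR8.

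Among photoreceptors and PIF factors, the latter repressors of photomorphogenesis in the dark, 2 of 9 tested genes fell and 0 rose (median -0.45). PIF4 fell from 23.4 and 21.9 RPKM to 14.3 and 9.16 RPKM (-0.92 ± 0.20, limma adjusted p = 0.033). PIF1, whose multi-mapped share reached 0.393, fell by 0.59 ± 0.13. The cryptochromes CRY1 and CRY2 were fitted at -0.51 and -0.45 and were not called (limma adjusted p = 0.058 and 0.089).

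Of the genes around CO in photoperiodic flowering, 14 were tested, of which 1 rose and 4 fell (median -0.28). CDF1, a DOF factor that represses CO, rose from 6.63 and 6.22 RPKM to 13.7 and 20.4 RPKM (1.26 ± 0.19, limma adjusted p = 0.012). CDF3, of the same subfamily, fell by 1.02 ± 0.15, GI, which helps remove CDF repressors, by 0.79 ± 0.14 and the flowering integrator SOC1 by 0.71 ± 0.13. ZTL, a photoreceptor F-box protein, also fell, by 0.58 ± 0.12. NF-YB3 and NF-YC9, subunits of the complex through which CO acts on DNA, were not called. FT, the target of CO, had 0.218 and 0.109 RPKM at 0 h and 0.108 and 0.198 RPKM at 0.5 h, was not tested, and showed overlapping groups.

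In the circadian clock 7 of 11 tested genes fell and 0 rose (median -0.90). LNK2, a co-activator, fell by 1.69 ± 0.19 on the log2 scale, and RVE8, a morning MYB factor, by 1.35 ± 0.16. CCA1 had 4.67 and 4.73 RPKM at 0 h and 2.13 and 1.02 RPKM at 0.5 h and was called lower (limma adjusted p = 0.022). Its part in the levels of B-box genes was not tested. The pseudo-response regulators PRR5 and PRR7 fell by 0.93 ± 0.14 and 0.90 ± 0.16. TOC1 and ELF4, which act in the evening, had fitted changes of 0.15 and 0.40 and were not called. Of the pigment and photoprotection genes downstream of HY5, 4 of 9 were tested. F3H of flavonoid synthesis was called lower (limma adjusted p = 0.0495) and had a multi-mapped share of 1. It had 1.67 and 1.77 RPKM at 0 h and 0.683 and 0.546 RPKM at 0.5 h. F3H thus passed the minimum of 1 RPKM on the mean only through its 0 h libraries, so its call is conditional on that difference. CHI, at 9.31, 8.48, 9.68 and 8.52 RPKM, and ELIP1, at 3.54, 11.2, 4.81 and 3.04 RPKM, overlapped between the groups.

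**Figure D4:**
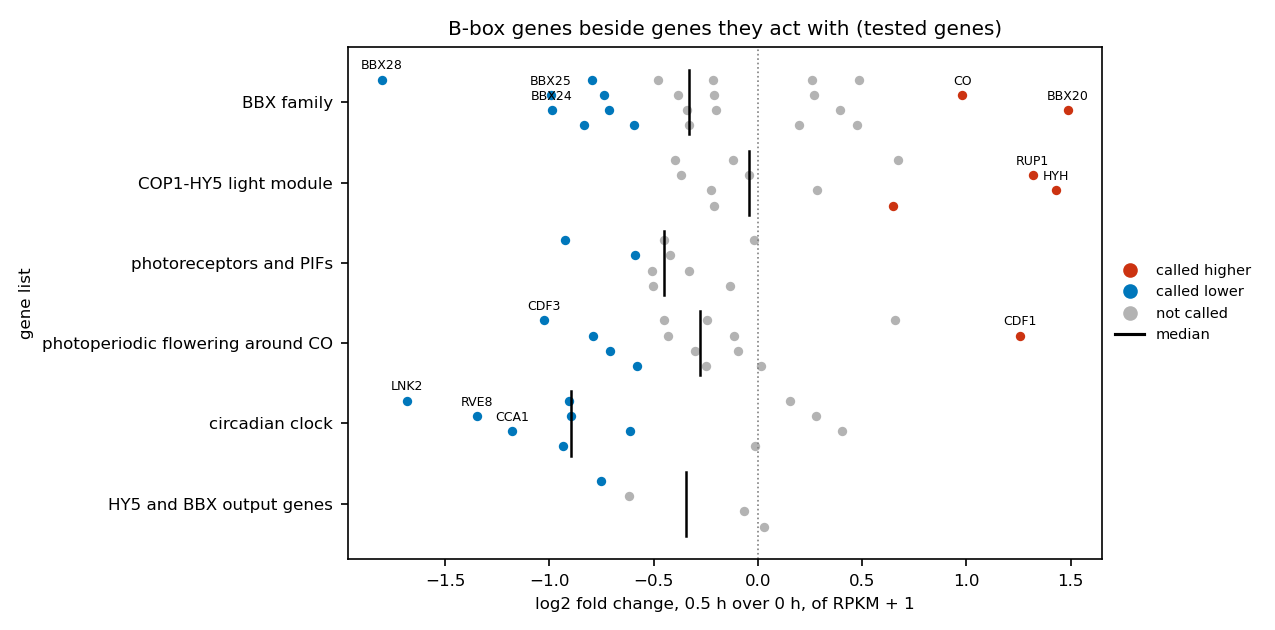
Log2 fold change of RPKM + 1, 0.5 h over 0 h, of every tested gene of the B-box family and of the 5 lists of genes that act with it, with a black line at each median; red genes are called higher, blue lower and grey not called. The median is lowest in the circadian clock list (-0.90), and BBX20, HYH, RUP1 and CDF1 are the genes furthest to the right.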

How the data were processed

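The deposited table gives RPKM per gene and library, to which the authors applied TMM scaling, per the file name, and a deposited fraction per gene, by its header the maximum share of reads that map to several places. Per the submitters' processing notes, TAIR10 and SAMtools were used. The aligner, the counter and its use of strand are, in the sources used here, not given. RPKM times gene length lay on steps, from which reads were recovered with 0.5 read subtracted. These were whole, within 0.05 read, for 100.0% of genes without and 47.5 to 51.7% of genes with multi-mapped reads.

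Genes averaging at least 1 RPKM were tested with limma 3.58.1 (R 4.3.3, intensity trend, two-sided) on log2(RPKM + 1), with 2 residual and 4.82 prior degrees of freedom. The fit was also run on simulated counts with the same spread setting for every gene, unlike these data, so that run does not measure its error here. Names, overlaps and promoters came from TAIR10.1 RefSeq; the notes name another build, so no coordinates are printed. Members and lists were chosen with earlier results of these data known. All members are accounted for. Of each list, up to 4 called genes with the smallest adjusted p and up to 2 uncalled genes with the highest mean are named. ZTL, CCA1, FT and the tissue markers beyond the 2 with the highest mean of each list were named after their values were seen. Python 3.11.15, pandas 2.3.3 and matplotlib 3.10.9 were used. Alternatives were other pseudocounts, minimums, scalings and limma settings, a replicate block, leaving out each library, limma-voom applied to recovered reads, and dropping genes whose multi-mapped share exceeds 0.05.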

Additional observations from a re-analysis of the deposited data

How the results depend on the processing

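With 2 libraries per group, precision is limited by their number. Without any minimum on the mean, limma called 0 of 32 members higher and 0 lower (median log2 fold change -0.205), and 0 and 2 of all genes. The calls thus depend on that minimum, and the cause was not tested. At an unadjusted limma p under 0.05, 4 members were higher and 11 lower, beside 2682 and 2803 of all 33602 genes. With a minimum of 5 RPKM, 1 member rose, since CO was no longer tested. With a pseudocount of 5 the family median was -0.17. Leaving out 1 library at a time, members called higher numbered 1 to 2 and lower 2 to 5, the family median ran from -0.47 to -0.15, and all genes called numbered 506 to 1158 higher and 233 to 824 lower. In those fits, which assume that the lone library varies like the other group, COL9 ran from -0.024 to 0.422, COL16 from -0.425 to 0.025 and COL6 from -0.046 to 0.566. COL15 was called lower with a minimum of 5 RPKM, robust estimation, limma-voom, or without genes of a high multi-mapped share (limma adjusted p = 0.039 to 0.045). The replicate numbers of the labels were not taken as pairs. Same-numbered libraries shared little deviation (correlation -0.08 over 18039 genes), which cannot tell whether they were paired, since each time gives a single difference. With a replicate block 2 members were higher and 8 lower, and 1127 and 834 of all genes.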
